A study of Mus musculus with 6 samples.

Results

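The genes described are the 4 receptors of the EGF receptor (ErbB) family, Egfr, Erbb2, Erbb3 and Erbb4, and 6 of their ligands, Egf, Tgfa, Areg, Ereg, Hbegf and Btc. They were chosen by name from the gene symbols of the array. Of these 10 genes, 9 had a transcript cluster annotated with 1 symbol, among 30142 genes tested in all. Areg was not analysed here. Ereg had 2 clusters and the other measured members 1 each, and the brighter Ereg cluster stands for the gene.

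Affymetrix MTA 1.0 arrays, 1 for each tumor, measured the RNA of cells sorted from MCRedAL tumors; these are allografts of a mouse prostate cancer line marked with the red fluorescent protein mCherry. There were 3 tumors from untreated male mice, titled Intact and referred to as castration sensitive, and 3 from male mice given degarelix, titled 7dPC and referred to as post-ADT (androgen deprivation therapy). Degarelix blocks the receptor for gonadotropin-releasing hormone and so withdraws testicular androgen; it was injected under the skin once a tumor size of roughly 500 mm2, in the unit the labels print, was reached, and mice had been randomized to the groups. The tag 7dPC is not explained in the labels, so no time after treatment is given here, nor are the strain and age of the mice. All 6 tumors come from 1 line, which limits the model, and in both groups the sort kept mCherry-positive cells that lacked CD45, CD11b and the macrophage antigen encoded by Adgre1, from tumors of similar size. The labels call the tumors biological replicates, and RNA integrity numbers were 9 or more. The number of arrays, 3 in each group, limits the precision.

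ErbB receptors are tyrosine kinases of the cell surface that pair when a ligand binds and then phosphorylate each other, which starts the RAS-ERK and PI3K-AKT cascades. Their ligands are made as membrane proteins and released by proteases of the ADAM family. EGF, TGF-alpha and amphiregulin bind EGFR; betacellulin, epiregulin and HB-EGF bind EGFR and ERBB4; ERBB2 has no known ligand of its own, and ERBB3, which has little kinase activity, binds neuregulins. In the prostate the family is known as a growth signal of epithelial cells that runs beside the androgen receptor.

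Among the sorted cells, the ligand gene Hbegf was higher after degarelix, by 1.60-fold, and the receptor gene Erbb3 was lower, by 1.42-fold. These were the 2 of 9 measured members that passed the test, 1 in each direction. Of all genes tested, 11.7% passed, 4.19% as higher and 7.51% as lower. A count of 2 among 9 is too small to be read as apart from that share. Egfr and Ereg had values above 0 that narrowly missed the threshold, and Egf, Tgfa, Btc, Erbb2 and Erbb4 did not pass either. The test was limma across all genes, two-sided, with Benjamini-Hochberg adjusted p under 0.05, and every change is degarelix minus untreated on the log2 scale. The median change was 0.12 over the 9 members and 0.04 over all genes.

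**Figure D1:**
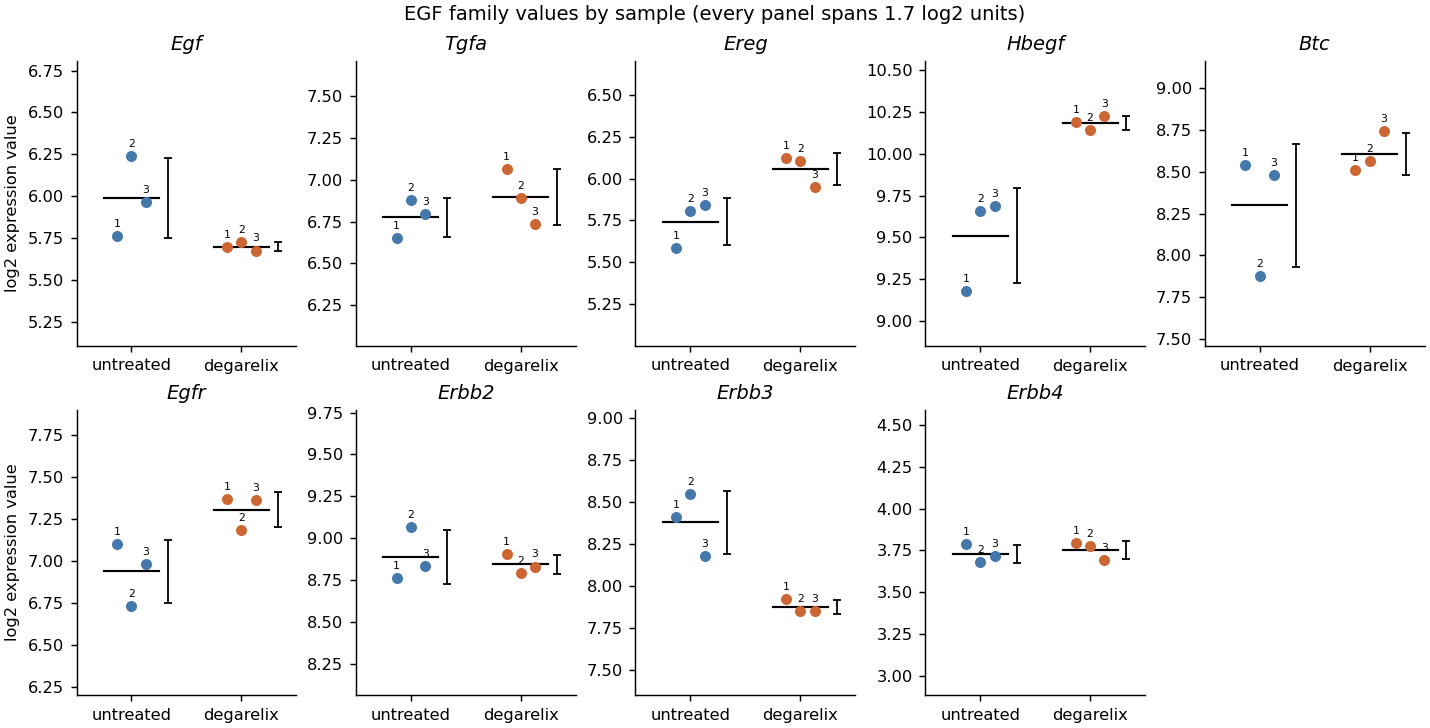
Log2 expression value of the 9 measured EGF family members on each array, untreated (blue) and degarelix (orange), 3 tumors per group with the replicate number beside each point. Horizontal bars are group means and the vertical bars show the SD around the mean; all panels span the same range of log2 units, and heights are not comparable between genes. Hbegf and Erbb3 have the widest gaps between the groups, while the groups overlap for Tgfa, Btc, Erbb2 and Erbb4.

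Among the ligands, Hbegf, which encodes heparin-binding EGF-like growth factor, had log2 values of 9.18, 9.66 and 9.68 in untreated replicates 1 to 3 and of 10.19, 10.14 and 10.22 in the degarelix samples. All degarelix samples lay above all untreated ones, with a gap of 0.46 between the groups, and the untreated samples were more spread. The means were 9.51 ± 0.28 and 10.19 ± 0.04 (SD, n = 3 each). The change was 0.68 (SE 0.13, 95% confidence interval 0.38 to 0.97; limma adjusted p = 0.0124). It lost its call without degarelix replicate 1 (adjusted p = 0.0547) at nearly the same size, 0.67. Without untreated replicate 1, the lowest sample, the change was 0.51 (limma adjusted p = 0.00334).

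Ereg, which encodes epiregulin, had values of 5.58, 5.81 and 5.84 in untreated and 6.12, 6.10 and 5.95 in degarelix samples. The groups did not overlap, but the gap was 0.11. The change of 0.31 (SE 0.09, interval 0.11 to 0.52) missed the threshold (limma adjusted p = 0.0598), and passed it without degarelix replicate 3 (0.0495). The dimmer Ereg cluster had a change of 0.15 (SE 0.12). All values of both clusters lay below the brightest background probe set of their array, so the size of any difference in Ereg is uncertain.

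Egf, which encodes epidermal growth factor itself, was measured at 5.77, 6.24 and 5.97 in untreated and 5.70, 5.73 and 5.68 in degarelix samples. Untreated replicate 2 was the highest, and the groups were 0.04 apart. The change was -0.29 (SE 0.11, interval -0.55 to -0.03; limma adjusted p = 0.144). Without untreated replicate 1 it was -0.40 and passed the test (limma adjusted p = 0.026); without untreated replicate 2 it was -0.17 (adjusted p = 0.371). Egf too lay below the brightest background probe set on every array.

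Tgfa, the gene of transforming growth factor alpha, had values of 6.65, 6.88 and 6.80 in untreated and 7.07, 6.89 and 6.73 in degarelix samples, and the groups overlapped. Its change was 0.12 (SE 0.10, interval -0.11 to 0.35; limma adjusted p = 0.47). Btc, the gene of betacellulin, had values of 8.54, 7.88 and 8.48 in untreated and 8.51, 8.56 and 8.74 in degarelix samples. Only untreated replicate 2 stood apart, below the other 5 samples. The Btc change was 0.31 (SE 0.17, interval -0.07 to 0.68; limma adjusted p = 0.277), and 0.10 without that sample. These intervals leave room for a change of Btc up to the size measured for Hbegf, so the 2 ligands are not shown to respond differently.

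Among the receptors, Erbb3 had log2 values of 8.41, 8.55 and 8.18 in untreated and 7.92, 7.85 and 7.85 in degarelix samples. All degarelix samples lay below all untreated ones, with a gap of 0.25. The means were 8.38 ± 0.19 and 7.87 ± 0.04 (SD, n = 3 each), and the change was -0.51 (SE 0.10, interval -0.73 to -0.28; limma adjusted p = 0.0137). The call ended without degarelix replicate 2 (adjusted p = 0.0546) and with quantile normalization over the tested genes (change -0.42, adjusted p = 0.0523). A test against a change of 1.2-fold, which asks for more than a difference from 0, passed neither Erbb3 (adjusted p = 0.351) nor Hbegf (0.157).

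Egfr, the receptor for EGF, TGF-alpha and HB-EGF, had values of 7.10, 6.73 and 6.98 in untreated and 7.37, 7.18 and 7.36 in degarelix samples. The groups did not overlap, with a gap of 0.08. The change of 0.37 (SE 0.11, interval 0.13 to 0.61) missed the threshold (limma adjusted p = 0.0582). It passed without untreated replicate 1, at 0.45 (limma adjusted p = 0.0246), and was 0.26 without untreated replicate 2 (0.163).

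Erbb2, the partner receptor, was at 8.76, 9.07 and 8.84 in untreated and 8.91, 8.79 and 8.83 in degarelix samples, and the groups overlapped. Its change was -0.04 (SE 0.09), and the interval of -0.25 to 0.16 excludes a fall as large as that measured for Erbb3. Erbb4 was at 3.79, 3.68 and 3.71 in untreated and 3.79, 3.77 and 3.69 in degarelix samples, below the brightest background probe set on every array. Its change was 0.02 (SE 0.07, limma adjusted p = 0.842), at a level where a fall could hardly be seen. The signs of these 2 small values turned under cyclic loess and quantile normalization.

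**Figure D2:**
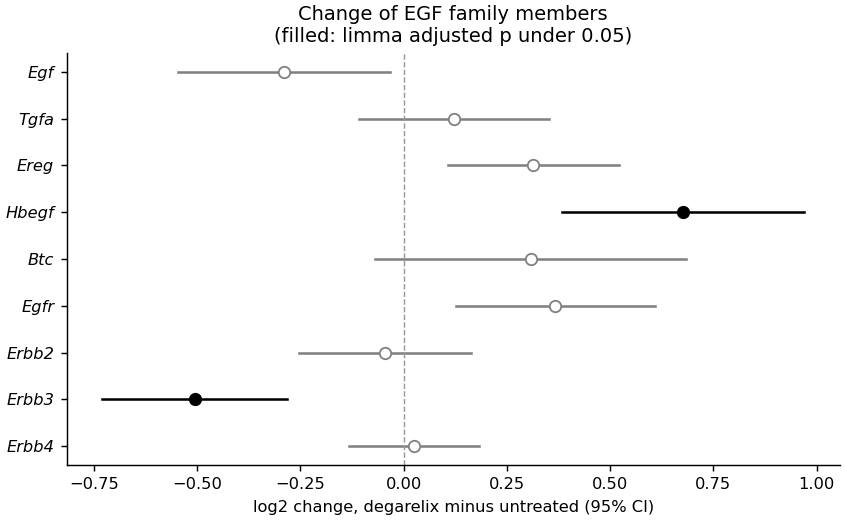
Change of each measured EGF family member in log2 units, degarelix minus untreated (3 tumors per group); lines are 95% confidence intervals from limma and filled points have an adjusted p under 0.05. Hbegf (0.68) and Erbb3 (-0.51) are the filled points; the intervals of Egf, Ereg and Egfr leave out 0 before adjustment over all genes.

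The groups did not overlap for 5 of the 9 members, 3 higher (Hbegf, Ereg, Egfr) and 2 lower (Egf, Erbb3) after degarelix. Over all genes this held for 31.2%, with 14.8% higher and 16.4% lower. Members whose groups did not overlap therefore include 3 that did not pass the test. Egf, Ereg and Erbb4 were below the brightest background probe set on all 6 arrays and Tgfa on 1, while Hbegf, Btc, Egfr, Erbb2 and Erbb3 were above it on all 6. In the gene order of the mouse genome (RefSeq, GRCm38.p6), Epgn, Ereg, Areg and Btc follow each other with 0 protein-coding genes between them. The 3 measured genes of this cluster had changes of 0.04 (Epgn), 0.31 (Ereg) and 0.31 (Btc), none past the test.

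The samples' patterns were also set beside those of all other named genes, by the root mean square distance of the 6 values after each gene was centred on its own mean. The 3 genes closest to Hbegf were Tnip1, which encodes an inhibitor of NF-kB signalling (distance 0.03 log2 units), Ssh1, a cofilin phosphatase gene (0.05), and the annexin gene Anxa3 (0.06). Their changes were 0.69, 0.60 and 0.62. Closest to Erbb3 were Bdh1, which encodes a ketone body dehydrogenase (distance 0.04), the melanocortin receptor gene Mc5r (0.05) and the kinesin gene Kif21a (0.05), with changes of -0.55, -0.58 and -0.44. The group means of Mc5r (5.30 untreated, 4.72 degarelix) and Kif21a (6.02 and 5.58) lay below the brightest background probe set of every array (6.59 or more). These likenesses describe 6 samples in 2 groups and rest largely on the group difference.

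The other genes of the pathway were taken as 5 lists, of which 66 of 74 genes were measured. Of these 66, 11 were higher and 3 lower after degarelix, 21.2% in either direction against 11.7% of all genes (4.19% higher and 7.51% lower). These shares of all genes, and their median change of 0.04, are the background for each list that follows. The lists were chosen with earlier results of these data known, so a difference from this background is not an independent test of a list. None of the 5 other ErbB ligand genes, Epgn and the neuregulin genes Nrg1 to Nrg4, passed the limma test. Their changes lay between 0.04 and 0.18, with 0 of 5 past an adjusted p under 0.05 and 0 past an unadjusted p under 0.05. All 5 lay below the brightest background probe set on all arrays. The ligands of ERBB3 were thus measured only at levels where a fall would be hard to see.

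Of 8 measured genes of ligand release, 2 were higher and 1 lower (median 0.15), beside 11.7% of all genes called, and so small a count is not read as apart from that share. Adam17, which encodes the main sheddase of several ErbB ligands, had values of 7.77, 7.73 and 7.81 in untreated and 7.26, 7.32 and 7.43 in degarelix samples. The groups were clearly apart, and Adam17 fell by 0.43 (SE 0.07, limma adjusted p = 0.00685). Timp3, which encodes an inhibitor of ADAM17, rose from 7.05, 7.08 and 7.05 to 7.65, 7.38 and 7.49, a change of 0.45 (SE 0.08, limma adjusted p = 0.0107). Both kept their call on leaving out each of the 6 samples in turn. Adam10, another sheddase gene, rose by 0.33 (limma adjusted p = 0.0467), a call that was lost for 5 of the 6 samples left out and remained without untreated replicate 1. Rhbdl2, a rhomboid protease gene, had a change of 0.61 (SE 0.20) that did not pass (limma adjusted p = 0.0863). Rhbdf1 and Rhbdf2, which encode the carriers that bring ADAM17 to the surface, had changes of 0.13 and 0.18, also short of the test.

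Of 16 genes of receptor inhibition and turnover, 2 rose and 1 fell (median 0.08), 18.8% beside 11.7% of all genes. Socs5, which encodes a suppressor that promotes loss of EGFR, rose from 6.71, 6.75 and 6.97 to 7.41, 7.30 and 7.45, a change of 0.58 (SE 0.09, limma adjusted p = 0.00445). Sh3kbp1, whose product links CBL to receptor uptake, rose by 0.36 (limma adjusted p = 0.0113, and 0.0518 without untreated replicate 2). It was above the brightest background probe set on only 1 of the 6 arrays. Eps15, an endocytosis gene, was lower at -0.31 (limma adjusted p = 0.0464), a call that was lost for 5 of the 6 samples left out and remained without degarelix replicate 3. Errfi1, which encodes the EGFR inhibitor MIG6, had a change of 0.27 (SE 0.08, limma adjusted p = 0.0517). The leucine-rich inhibitor genes Lrig1, Lrig2 and Lrig3 were at -0.03, -0.06 and 0.20, none past the test. Lrig2 and Lrig3 lay below the brightest background probe set on all arrays.

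Of 22 measured adaptor and relay genes, 2 rose and 1 fell (median -0.09), a share of 13.6% that is near the 11.7% of all genes. Stat3, a transcription factor that acts below several receptors, rose by 0.40 (SE 0.07, limma adjusted p = 0.00959). The kinase gene Src rose by 0.31 (limma adjusted p = 0.0258), and Sos1, which encodes an exchange factor of RAS, was lower at -0.36 (0.0248). The calls of Src and Sos1 remained without untreated replicate 1 or degarelix replicate 3 and were lost without any of the other 4 samples. Grb7, an adaptor that binds ERBB2, had a change of -0.40 (SE 0.14, limma adjusted p = 0.105).

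Of 15 measured genes of ERK output and feedback, 5 rose and none fell (median 0.25), beside 4.19% of all genes higher and 7.51% lower. Because this list too was chosen with earlier results known, its count is not read as apart from those shares. Of the 15 values 12 were above 0, as were 58.7% of the values of all genes. Dusp6, which encodes a phosphatase that switches off ERK and is itself induced by it, had values of 8.78, 9.00 and 9.18 in untreated and 9.76, 9.85 and 10.17 in degarelix samples. The groups were 0.58 apart, and the change was 0.94 (SE 0.13, limma adjusted p = 0.00306), the only one of the 14 calls in the 5 lists that also passed the test against 1.2-fold (adjusted p = 0.0197). Ier3, an immediate early gene, rose from 5.82, 6.06 and 6.13 to 6.59, 6.59 and 6.64, a change of 0.60 (SE 0.09, limma adjusted p = 0.00427) at values below the brightest background probe set. The transcription factor gene Fos rose by 0.54 (SE 0.12, limma adjusted p = 0.0265) and the ERK phosphatase gene Dusp4 by 0.33 (0.0421). Phlda1, the fifth call of this list, lay outside the rule for named genes and is given because its value was seen; it rose by 0.48 (limma adjusted p = 0.0461).

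The calls of Fos, Dusp4 and Phlda1 depended on single samples. Fos did not pass when untreated replicate 2 or 3 or degarelix replicate 1 was left out (limma adjusted p = 0.0668, 0.0894 and 0.063). Dusp4 remained called only without untreated replicate 3, and Phlda1 only without untreated replicate 1 or 2. With each array centred on its median, Fos, Dusp4, Phlda1, Adam10 and Eps15 did not pass (limma adjusted p = 0.0726, 0.126, 0.12, 0.115 and 0.0612). Among the other members of the list, the ERK-responsive genes Spry2, Spry4, Etv4, Etv5 and Egr1 had changes of 0.24, -0.04, 0.19, 0.02 and 0.25, none past the test. Spry4, Etv4 and Etv5 lay below the brightest background probe set on all arrays, and Spry2 was above it on only 1. For these genes a missing call says little. Egr1 was above it on all 6 arrays, and its groups did not overlap. Dusp5, Fosl1, Spred1 and Spred2 were also above it on all 6 arrays, with changes of 0.33, 0.48, -0.18 and -0.16. Their groups overlapped and none passed the test, so calls were missing for well-measured genes too. Several genes of this list also respond to tissue handling and to signals other than ErbB, and the part of handling was not tested.

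**Figure D3:**
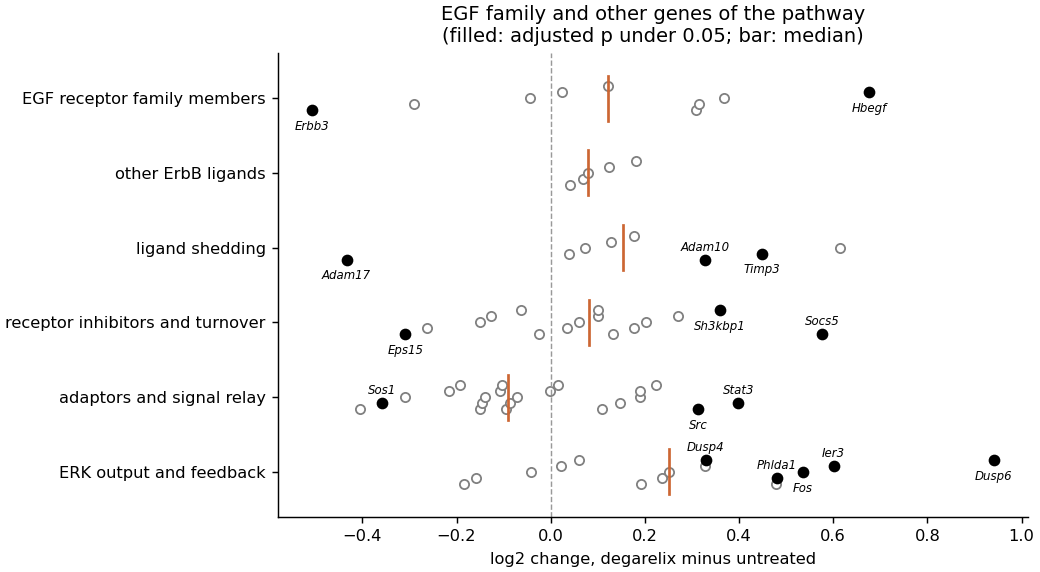
Log2 change, degarelix minus untreated, of each measured gene of the EGF family and of 5 lists of other pathway genes; each point is a gene, filled where the limma adjusted p is under 0.05, and the vertical bar is the list's median. In the ERK output list 5 of 15 points are filled, all above 0, while filled points lie on both sides of 0 in the EGF family, the shedding, the inhibitor and the adaptor lists.

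The sorted cells were checked against marker genes. Of the epithelial and luminal markers, Krt8, Krt19, Foxa1 and Hoxb13 were above the brightest background probe set on all arrays, while Epcam, Cdh1 and Krt18 were below it on all 6. Of the 7 measured, Krt19 rose by 1.88 and the others did not pass the test. Their summed level (log2 of the sum of the markers' linear values) was 11.78 to 12.28 in untreated and 12.32 to 12.51 in degarelix samples, narrowly without overlap. Krt8, the brightest of them, had overlapping groups (11.90 in untreated replicate 2 and 11.83 in degarelix replicate 1). Of the 7 changes 5 were above 0 and 2 below, Foxa1 (-0.06) and Hoxb13 (-0.19). The sum thus does not stand for the luminal markers as a set. Of 5 basal epithelial markers, Krt15 rose by 3.88 and Krt14 by 0.38, and Krt5, Trp63 and Itgb4 did not pass. The basal sum was 9.03 to 9.33 in untreated and 12.04 to 12.36 in degarelix samples. Its rise was mainly that of Krt15 (means 8.23 and 12.11) and does not stand for the basal markers as a set. Krt14 lay below the brightest background probe set on all arrays. Krt15, Krt14 and Krt19 thus moved with the groups, and the part of epithelial make-up in the changes of the EGF family was not tested. Of the leukocyte markers, 4 of 4 measured, among them Ptprc and Itgam, which encode the sorted-out antigens CD45 and CD11b, were below it on all arrays, as were 6 of 6 neutrophil markers and Adgre1. The summed level ranged from 7.04 to 7.49 in untreated and 7.10 to 7.30 in degarelix samples for leukocytes, and from 7.30 to 7.39 and 7.33 to 7.52 for neutrophils, of whose markers Ly6g rose by 0.38.

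Markers of other cells did move with single samples and with the groups. For macrophages 3 of 6 markers were below the brightest background probe set on all arrays, and the summed level was 8.77 to 9.98 in untreated and 8.78 to 8.87 in degarelix samples. All 6 macrophage and all 5 endothelial markers were highest in untreated replicate 1, the sample with the lowest Hbegf value; the endothelial sum was 8.35 to 8.92 and 8.29 to 8.39. The fibroblast sum was 10.63 to 10.94 in untreated and 10.94 to 11.63 in degarelix samples, with degarelix replicate 2 (10.937) just below untreated replicate 3 (10.943). All 6 measured fibroblast markers were highest in degarelix replicate 3. Dcn and Fbln1 rose by 1.46 and 1.07, and the other 4 did not pass the test. Without degarelix replicate 3 the changes were 0.66 for Hbegf, -0.49 for Erbb3, 0.34 for Egfr and 0.82 for Dusp6; without untreated replicate 1 those of Erbb3 and Dusp6 were -0.49 and 0.84. In degarelix replicates 1 and 2, Dcn (8.71 and 8.55), Fbln1 (7.99 and 7.79) and Lum (6.16 and 6.15) were still above all untreated samples. Col1a1 (9.54 and 9.27), Col1a2 (8.85 and 8.54) and Col3a1 (8.43 and 8.25) overlapped the untreated samples there. Leaving out degarelix replicate 3 thus does not remove the difference in Dcn, Fbln1 and Lum. Lum was above the brightest background probe set only in degarelix replicate 3, so the size of its remaining difference is uncertain. The part of fibroblasts in the changes of the EGF family and its pathway was not tested. In such bulk samples fewer cells of a type and less RNA per cell cannot be told apart.

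**Figure D4:**
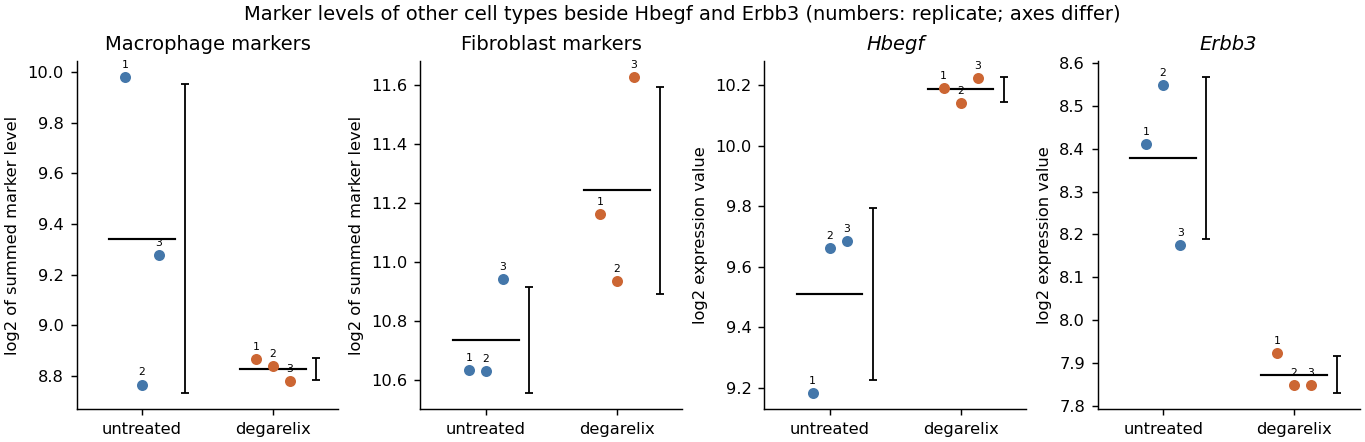
Summed level of 6 macrophage and 6 fibroblast markers (log2 of summed linear values) and log2 values of Hbegf and Erbb3 on each array, untreated (blue) and degarelix (orange), with replicate numbers, group means and SD bars; the vertical axes differ. Untreated replicate 1 is highest for macrophage markers (9.98) and lowest for Hbegf (9.18), and degarelix replicate 3 is highest for fibroblast markers (11.63).

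Across 15 other settings of the analysis, Hbegf kept its direction in 15 and its call in 13, with changes of 0.51 to 0.80. Erbb3 kept its direction in 15 and its call in 12, with changes of -0.61 to -0.42. Egfr was above 0 in all 15 (0.26 to 0.45) and passed the test in 2, and Ereg was above 0 in all 15 (0.23 to 0.37) and passed in 1. Egf was below 0 in all 15 (-0.40 to -0.17) and passed in 1.

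**Figure D5:**
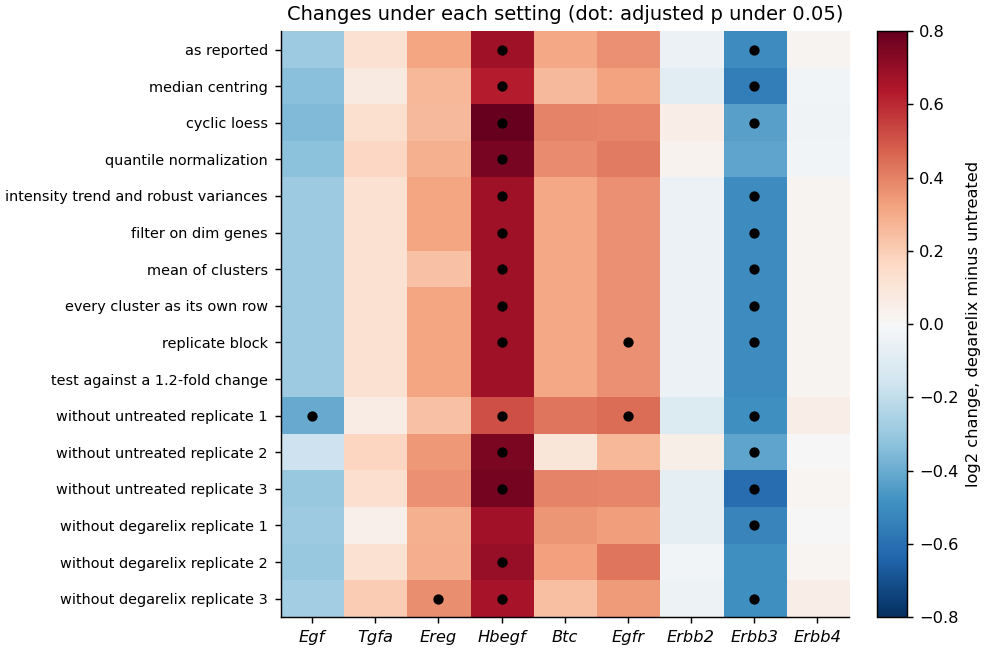
Log2 change (colour), degarelix minus untreated, of the 9 measured EGF family members in the analysis as reported and under 15 other settings (rows); a dot marks a limma adjusted p under 0.05. Hbegf carries a dot in 13 of the 15 other settings and Erbb3 in 12, and the colours of Erbb2 and Erbb4 stay near 0.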

How the data were processed

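The deposited values are log2 expression values, per the file's range of 1.96 to 13.7 over transcript clusters. The authors made them with RMA in Affymetrix Expression Console, per the submitters' processing notes; version and settings: not given in the sources used here. Because RMA corrects background and equalises the arrays' distributions before it summarises probes, differences of dim genes come out too small and array-wide shifts are lost. Of 72688 rows, 6732 control rows were left out; 23 background probe sets served as a guide to detection.

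Clusters with exactly 1 gene symbol (30604) were named from the platform annotation, with symbols updated through Entrez identifiers (RefSeq, GRCm38.p6), and the brightest cluster per gene was tested with no filter on dim genes. Of the genes tested, 30.3% to 35.1% per array were above that array's brightest background probe set. Degarelix and untreated were compared in limma 3.58.1 (R 4.3.3; lmFit and eBayes, default settings), checked on simulated data. Named were the members, up to 4 called genes per pathway list by adjusted p, and the 3 closest patterns for the 2 called members of largest change. The members and lists were chosen with earlier results of these data known. Figures were drawn with matplotlib 3.10.9.

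Other settings tried were 3 scalings (cyclic loess, quantile normalization, median centring), robust variances with an intensity trend, clusters averaged per gene or tested singly, dim genes left out, a replicate block, a test against a 1.2-fold change, and each sample left out in turn.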

Additional observations from a re-analysis of the deposited data

How the results depend on the processing

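As reported, 1262 of all genes were higher and 2264 lower, with 1 EGF family member in each direction. On leaving out 1 sample in turn, the counts ranged from 624 to 1651 genes higher and from 966 to 3253 lower, and from 0 to 2 members higher and 0 to 2 lower. With median centring 691 genes were higher. The test against a 1.2-fold change, which asks for a larger effect, left 241 genes higher and 508 lower and 0 members in either direction. With quantile normalization 0 members were lower. The change of Erbb2 turned to 0.0555 under cyclic loess and 0.0283 under quantile normalization, and ranged from -0.108 to 0.0449 on leaving out samples, above 0 without untreated replicate 2; that of Erbb4 turned to -0.0226 with median centring, -0.0282 under cyclic loess and -0.0248 under quantile normalization. The causes were not tested. The titles number the tumors of both groups 1 to 3, but nothing says that a number is shared, so the numbers were not taken to pair the samples. Deviations from the group means correlated at 0.163, 0.04 and 0.196 for equal numbers and at -0.172 to 0.0288 for unequal ones. Every sample thus correlated best with its own number, and these values do not settle whether the numbers pair the samples. With the replicate number as a block 2 members were higher, Hbegf and Egfr (limma adjusted p = 0.019 and 0.0242), the calls of Eps15, Fos and Dusp4 were lost (0.0716, 0.0562 and 0.0563), 1435 genes were higher and 2371 lower. Among the members and the 14 called pathway genes, 272 comparisons with an alternative kept direction and side of the threshold, 63 lost the call, 4 gained it and 6 changed sign. Settings that leave the change itself as reported, and so cannot turn its sign, are counted among these comparisons. Members below the brightest background probe set, Egf, Ereg and Erbb4, are those whose changes the signal limits most.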
